A study of Chlamydomonas reinhardtii with 9 samples.

Results

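The step between 8 h and 12 h without iron was examined in the green alga Chlamydomonas reinhardtii, as the difference between the 12 h columns and the 8 h columns of a deposited RNA-seq table. Transcripts entered with a mean of at least 1 RPKM (reads scaled by transcript length and library size) at either time, which left 12238 of the 17301 transcripts in the table. Both groups were wild-type strain CC-4532 grown with acetate in TAP medium under continuous light, washed free of iron and kept in medium without Fe-EDTA. The 12 h group had been without added iron for 12 h and the 8 h group for 8 h. Each group has 2 columns, which the series' design text calls biological duplicates, and 9 times were sampled in all. Every group carries the same strain, medium and wash, and no culture with iron was sampled in parallel. Time without iron, age of the culture and time since the wash therefore cannot be told apart.

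Iron is a cofactor of photosystem I, ferredoxin, cytochromes and iron-sulfur enzymes, so a photosynthetic cell holds much of it in the chloroplast. Chlamydomonas takes iron up through a surface reductase, a ferroxidase and a permease, and uses ferritin in the plastid for storage. With acetate in the medium the alga can respire as well as photosynthesise. The chloroplast makes part of its own proteins on bacterial-type ribosomes, most of whose proteins are encoded in the nucleus and imported.

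The 12 h and 8 h libraries held between 21.8 and 25.4 M reads on the transcripts, as recovered from the values. The 9 times together spanned 13.2 to 33.5 M reads. A count of 3 reads, the limit a count of 0 allows, was worth between 0.0520 and 0.0606 RPKM in these 4 libraries at the median transcript length of 2274 bases. This floor covers counting error alone. The duplicates correlated at 0.985 at 12 h and 0.987 at 8 h over transcripts on the log scale. Of the markers of gametes and zygotes, 6 were in the table and 1 was tested. That transcript, GSP1, a gamete-specific transcription factor, had 4.08 and 4.83 RPKM at 12 h, against 5.92 and 8.15 RPKM at 8 h.

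Among changes of 2-fold or more, falls at 12 h outnumbered rises. Calls required a change of 2-fold or more together with an adjusted p below 0.05. On this rule 124 transcripts (1.01% of those tested) were higher at 12 h and 340 (2.78%) were lower. The adjusted p alone put 1889 (15.4%) higher and 1937 (15.8%) lower, so without the fold threshold the counts were close to even. These overall shares stand beside the counts of each list below. The test was limma-trend on log2(RPKM + 1) with Benjamini-Hochberg adjustment over all 12238 transcripts. All adjusted p-values below come from it, and a fold on this scale understates the change of low transcripts. The median log2 change of all tested transcripts was 0.04. None of the 464 called transcripts had overlapping columns. Without regard to the test, 30.9% of all tested transcripts had both 12 h columns above both 8 h columns, and 26.1% had both below.

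The filter was passed through the 12 h columns alone by 431 transcripts, of which 10 were called higher, and through the 8 h columns alone by 447, of which 38 were called lower. The transcript just inside the filter had a higher mean of 1.00 RPKM, and that just outside had 0.999 RPKM. A fold of 4 or more on the log2(RPKM + 1) scale was reached by 5 of the transcripts called higher and by 25 of those called lower. The counts depend on the number added before taking logs. With 5 RPKM added in place of 1, 34 were higher and 149 lower, and with 0.1 RPKM added, 264 and 579.

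**Figure D1:**
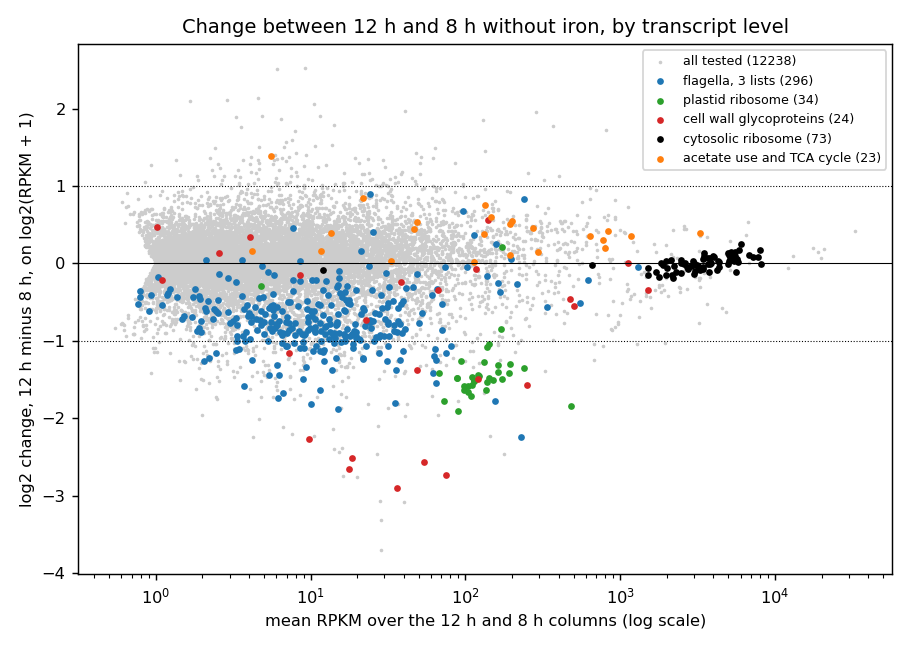
Log2 change (12 h minus 8 h, vertical axis) against mean RPKM over the 4 columns (horizontal log axis) for 12238 tested transcripts in grey, with 5 groups of transcripts in colour. Most transcripts of the plastid ribosome, the flagella and part of the cell wall list lie below 0, while those of the cytosolic ribosome lie between -0.18 and 0.25.

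Nuclear transcripts for proteins of the plastid ribosome fell almost as a block. Of 34 tested, 31 were lower and none higher, against the 2.78% lower among all transcripts, and the median log2 change was -1.48. In RNA from whole cultures, fewer cells with a transcript and less of it per cell cannot be told apart. PRPL7/L12, the stalk protein of the large subunit, was the most abundant, with 239 and 179 RPKM at 12 h, against 822 and 677 RPKM at 8 h. Both of its 12 h columns lay far below both 8 h columns (log2 change -1.85 ± 0.10 SE, limma adjusted p = 1.8e-07). The plastid-specific protein PSRP-3 had 37.6 and 36.8 RPKM at 12 h and 137 and 147 RPKM at 8 h (log2 change -1.90 ± 0.10, limma adjusted p = 1.8e-07). The large-subunit proteins PRPL17, PRPL18 and PRPL6 changed by -1.77, -1.71 and -1.35 on the same scale.

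Summed over the list, the plastid ribosome took 0.305% and 0.274% of all RPKM in the 12 h columns, against 0.802% and 0.750% in the 8 h columns. The 3 members that were not called, named after their values were seen, were PRPS1 with a log2 change of -0.85, PSRP-4 with -0.29 and PSRP-1 with 0.22. The count of lower members was between 29 and 31 when any 1 of the 4 columns was left out. Transcripts of the other ribosomes did not share this pattern of calls. Of 73 transcripts for the cytosolic ribosome and 37 for the mitochondrial ribosome none was called in either direction, with median log2 changes of 0.00 and 0.01. With limma, at an unadjusted p below 0.05, 4 of the cytosolic set were higher and 1 lower, and 1 of the mitochondrial set was higher and 2 lower. The test on recovered reads also called none of either set. The cytosolic set took 31.1% and 31.2% of all RPKM at 12 h and 31.1% in each 8 h column.

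**Figure D2:**
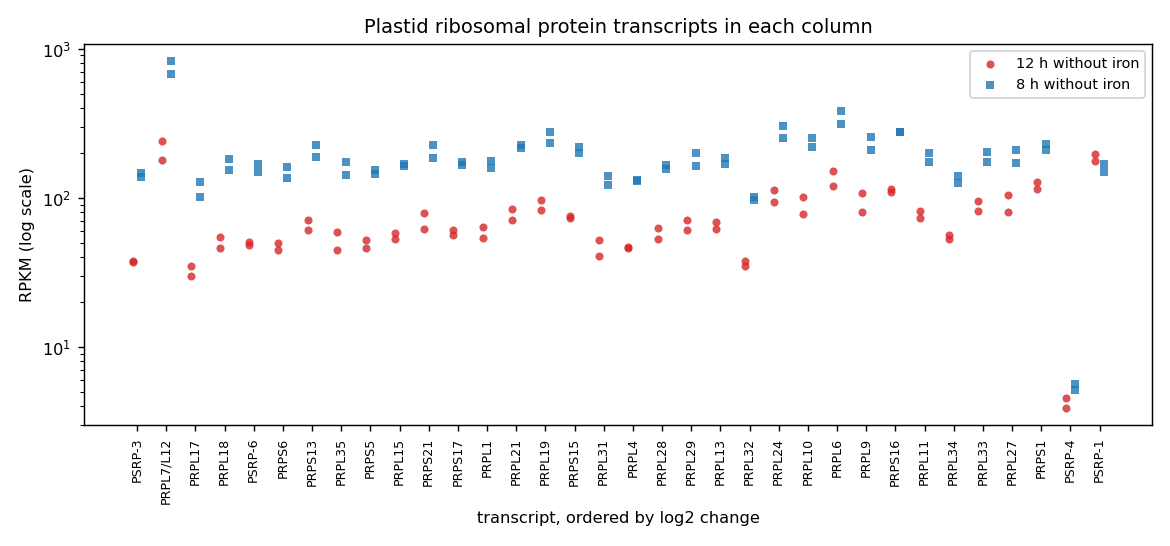
RPKM (log axis) of the 34 tested plastid ribosomal protein transcripts in the 2 columns at 12 h (red circles) and the 2 at 8 h (blue squares), ordered by log2 change. For 31 transcripts the 12 h columns are at least 2-fold lower on the log2(RPKM + 1) scale, while PSRP-1 at the right is not.

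Chaperones and import machinery that serve plastid proteins fell in part. At an unadjusted limma p below 0.05, 3 of 17 plastid chaperone transcripts were higher and 7 lower. With the adjusted p and the fold threshold none was called higher and 5 were called lower. The subunits of chaperonin 60, the folding cage of the chloroplast, led them. CPN60A had 12.2 and 13.98 RPKM at 12 h, against 52.5 and 48.2 RPKM at 8 h (log2 change -1.87 ± 0.11, limma adjusted p = 2.5e-07). CPN60B2 changed by -1.81, CPN60B1 by -1.27 and the co-chaperonin CPN20 by -1.24. HSP70B, the main plastid HSP70, had 271 and 273 RPKM at 12 h and 269 and 278 RPKM at 8 h, and its columns overlapped.

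In the list of plastid protein import and insertion 2 of 23 were lower and none higher. At an unadjusted limma p below 0.05, 4 of the 23 were higher and 9 lower. Tic110, a channel component of the inner envelope, had 7.88 and 6.84 RPKM at 12 h, against 28.4 and 25.1 RPKM at 8 h (log2 change -1.73 ± 0.08, limma adjusted p = 1.2e-07). SECY1, a preprotein translocase subunit, changed by -1.01 and was under 2-fold without the second 12 h column (-0.91) or the first 8 h column (-0.997). Of the 23, 3 were lower without the first 12 h column.

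Flagellar transcripts fell widely but by smaller steps. Chlamydomonas swims with a pair of flagella built on microtubule axonemes, and 3 lists covered their parts, with 296 transcripts tested. Of these, 60 were lower and none higher, and by adjusted p alone 250 were lower and 5 higher. The median log2 change of the 296 was -0.75. By part, 51 of 223 flagella-associated proteins, 8 of 52 parts of dynein arms, radial spokes and the central pair, and 1 of 21 proteins of transport and basal bodies were lower. The median changes of those 3 lists were -0.75, -0.77 and -0.73.

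The largest flagellar fall was that of FAP212, with 76.7 and 78.3 RPKM at 12 h, against 443 and 312 RPKM at 8 h (log2 change -2.25 ± 0.25, limma adjusted p = 2.9e-05). FAP56, FAP129 and FAP170 changed by -1.88, -1.82 and -1.80. Among structural parts, the radial spoke proteins RSP17 and RSP2 changed by -1.44 and -1.34, the central pair protein PF16 by -1.25 and the protofilament ribbon protein RIB72 by -1.11. DHC1b, the heavy chain of the motor for transport back to the cell body, changed by -1.03.

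As a share of all RPKM, flagella-associated proteins took 0.679% and 0.692% at 12 h, against 1.01% and 0.925% at 8 h. Dynein arms, radial spokes and the central pair took 0.119% and 0.120% at 12 h, against 0.219% and 0.189% at 8 h. Transport and basal bodies took 0.0523% and 0.0514% at 12 h, against 0.0754% and 0.0686% at 8 h. The abundant members FAP162 and VFL2 did not follow the rest. FAP162 had 1295 and 1280 RPKM at 12 h and 1353 and 1317 RPKM at 8 h (log2 change -0.05, limma adjusted p = 0.643), and the centrin VFL2, a basal body protein, had 212 and 192 RPKM at 12 h and 204 and 184 RPKM at 8 h. The tubulins TUB2 and TUA2, which also build cytoplasmic microtubules, changed by -0.77 and -0.42 (limma adjusted p = 0.00133 and 0.0224). The other tubulins tested, named after their values were seen, changed by 0.61 for TUG and 0.30 for TUH (limma adjusted p = 0.00547 and 0.0272). The first 8 h column sets much of the flagellar count, since without it 37 were lower, 3 of them among dynein arms, spokes and central pair and none in transport and basal bodies, and RIB72 and DHC1b moved to -0.96 and -0.94. Without the second 8 h column those 2 lists had 14 and 7 lower, and without the second 12 h column transport and basal bodies had 2. With 5 RPKM added before taking logs 24 of the 296 were lower.

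Cell wall glycoproteins gave the largest falls among transcripts with a symbol, and other members of the family were not called. The wall of Chlamydomonas is made of hydroxyproline-rich glycoproteins, among them pherophorins and ISG proteins related to wall proteins of Volvox. Of 24 tested, 10 were lower, none was higher and the median log2 change was -0.51. PHC22, a pherophorin, had 6.39 and 9.26 RPKM at 12 h, against 68.2 and 60.7 RPKM at 8 h (log2 change -2.91 ± 0.21, limma adjusted p = 7.4e-07). GAS28, a hydroxyproline-rich glycoprotein, had 15.9 and 21.7 RPKM at 12 h, against 143 and 117 RPKM at 8 h (log2 change -2.73 ± 0.28, limma adjusted p = 1.5e-05).

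PHC19, ISG-C2, PHC4 and ISG-C3 changed by -2.65, -2.57, -2.51 and -2.27, with no overlap between their columns. The most abundant pherophorins stood apart from these. PHC3 had 1213 and 1031 RPKM at 12 h and 1211 and 1023 RPKM at 8 h, and PHC2 changed by -0.34. Pherophorins form a family of similar genes, so how reads were shared between copies makes the level of each uncertain. At 24 h the means were 102 RPKM for PHC22 and 227 RPKM for GAS28. At 48 h these means were 1.93 and 4.86 RPKM.

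**Figure D3:**
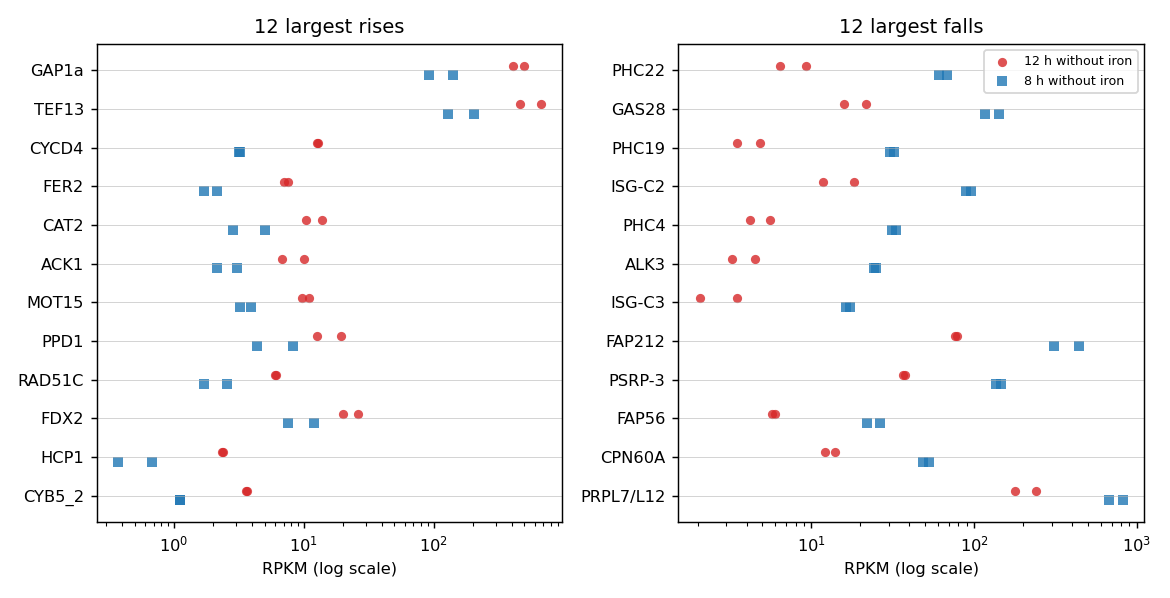
RPKM (log axis) in each column of the 12 largest rises and the 12 largest falls among called transcripts with a symbol, at 12 h (red circles) and 8 h (blue squares). The columns of the 2 times do not overlap for any of the 24 transcripts, as for all 464 called.

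Part of the transcripts for plastid fatty acid, carotenoid and tetrapyrrole synthesis were called lower at 12 h. In fatty acid synthesis 6 of 10 were lower and none higher, with a median log2 change of -1.04. ACP2, an acyl carrier protein and the most abundant, had 1291 and 1292 RPKM at 12 h, against 2769 and 2487 RPKM at 8 h (log2 change -1.02 ± 0.09, limma adjusted p = 3.0e-06). DLA2, an acetyltransferase subunit of the pyruvate dehydrogenase complex, changed by -1.27, and the biotin carboxyl carriers BCC2 and BCC1 of acetyl-CoA carboxylase by -1.26 and -1.13. The paralogue ACP1 had a change of 0.32 (limma adjusted p = 0.00965), with 335 and 289 RPKM at 12 h and 272 and 228 RPKM at 8 h. Without the first 8 h column 3 of the 10 were lower, with ACP2 at -0.98 and PDH2, a further pyruvate dehydrogenase subunit, at -0.95 in place of -1.07.

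In carotenoid and isoprenoid synthesis 6 of 15 were lower and 12 by adjusted p alone, with a median of -0.92. Phytoene desaturase, PDS, had 36.2 and 31.6 RPKM at 12 h, against 96.4 and 81.0 RPKM at 8 h (log2 change -1.36 ± 0.08, limma adjusted p = 1.8e-07). CMS of the plastid isoprenoid route changed by -1.62, zeta-carotene desaturase ZDS by -1.26 and geranylgeranyl diphosphate synthase GGPS by -1.19. Without the second 12 h column 4 were lower.

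Tetrapyrrole synthesis, which makes chlorophyll and haem, had 3 of 21 lower, 16 lower by adjusted p alone and none higher, with a median of -0.75. UROD1, which decarboxylates uroporphyrinogen, had 30.8 and 26.5 RPKM at 12 h, against 75.4 and 70.6 RPKM at 8 h (log2 change -1.32 ± 0.14, limma adjusted p = 1.9e-05). PBGD1, porphobilinogen deaminase, and GTS2, a synthetase that charges tRNA with the glutamate used at the start of the route, lay close to 2-fold at -1.02 each. The count of lower members changed as single columns were left out. It was 1 without the second 12 h column or the first 8 h column, 7 without the first 12 h column and 5 without the second 8 h column. Of the most abundant members, CRD1, the aerobic cyclase of chlorophyll synthesis, changed by -0.70 (limma adjusted p = 0.00135), and chlorophyll a oxygenase CAO had 231 and 173 RPKM at 12 h and 196 and 159 RPKM at 8 h.

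Few transcripts of the photosynthetic apparatus itself were called. No photosystem I transcript of 19 was called, although by limma 12 were lower at an adjusted p below 0.05 alone, 14 at an unadjusted p below 0.05, and none by the test on recovered reads with the fold threshold, and the median log2 change was -0.35. Their share of all RPKM was 3.88% and 4.07% at 12 h, against 4.82% and 5.05% at 8 h. In photosystem II, 1 of 16 was lower, the lumen protein PSBP6 at -1.25. None of the 8 LHCBM transcripts, the main antenna of photosystem II, was called by limma or on recovered reads, and at an unadjusted limma p below 0.05 2 were higher. The most abundant transcript of all, LHCBM1, had 41532 and 34448 RPKM at 12 h and 30042 and 26432 RPKM at 8 h. Its columns did not overlap, and its log2 change of 0.42 ± 0.16 missed the threshold (limma adjusted p = 0.0578). LHCBM genes are near-identical in part, so single levels are uncertain where reads could be split between copies. Together they took 12.2% and 11.1% at 12 h, against 10.2% and 9.74% at 8 h.

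Among electron carriers 4 of 21 were lower and 1 higher. FNR1, which passes electrons from ferredoxin to NADP, had 441 and 358 RPKM at 12 h, against 1029 and 862 RPKM at 8 h (log2 change -1.24 ± 0.08, limma adjusted p = 2.8e-07). PETC, the Rieske iron-sulfur protein of cytochrome b6f, changed by -1.04, but by -0.97 without the second 12 h column and -0.93 without the first 8 h column. FDX5, a ferredoxin also counted with fermentation, was called at -1.10, and each of the 4 columns was needed for that call. Its limma adjusted p ran from 0.0501 to 0.103 when 1 was left out. The count of lower carriers ran from 1 to 3 in the same way, and it was 1 without the second 12 h column and 2 without the first 8 h column.

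FDX2, a ferredoxin, was the riser, with 19.9 and 26.03 RPKM at 12 h, against 7.55 and 12.0 RPKM at 8 h (log2 change 1.18 ± 0.17, limma adjusted p = 2.2e-04). It stood at 0.87 without the first 8 h column and at 0.93 with 5 RPKM added before taking logs. The main ferredoxin PETF changed by -0.63, and plastocyanin PCY1, the copper protein that feeds photosystem I, had 12266 and 11732 RPKM at 12 h and 12962 and 11939 RPKM at 8 h. Of 10 photoprotection transcripts 3 were lower, the early light-inducible proteins ELI2-1 at -1.15 and ELI3 at -1.06 and the related LHL3 at -1.15. Without the second 12 h column LHL3 alone was lower, with ELI2-1 at -0.997 and ELI3 at -0.89.

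The Calvin cycle fixes carbon dioxide in the chloroplast, and 3 of its 23 transcripts were lower, 14 by adjusted p alone, with a median of -0.57. RPE1, ribulose phosphate epimerase, had 198 and 160 RPKM at 12 h, against 540 and 407 RPKM at 8 h (log2 change -1.40 ± 0.16, limma adjusted p = 3.2e-05). The aldolase FBA2 changed by -1.38 and rubisco activase RCA1 by -1.07, which was -0.95 without the second 12 h column and -0.98 without the first 8 h column. GAP3, the most abundant enzyme of the list, had 4018 and 3347 RPKM at 12 h and 5809 and 5126 RPKM at 8 h, a log2 change of -0.57 (limma adjusted p = 3.1e-05). Genes of inorganic carbon concentration went both ways. At an unadjusted limma p below 0.05, 5 of 32 were higher and 8 lower. With the adjusted p and the fold threshold none was called higher and 3 were called lower. These were CAH3, a thylakoid lumen carbonic anhydrase, at -1.26, LCI20, a 2-oxoglutarate/malate translocator, at -1.06 and LCI5 at -1.05. Without the second 12 h column none of the 3 was called, and without the first 8 h column 1 was.

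**Figure D4:**
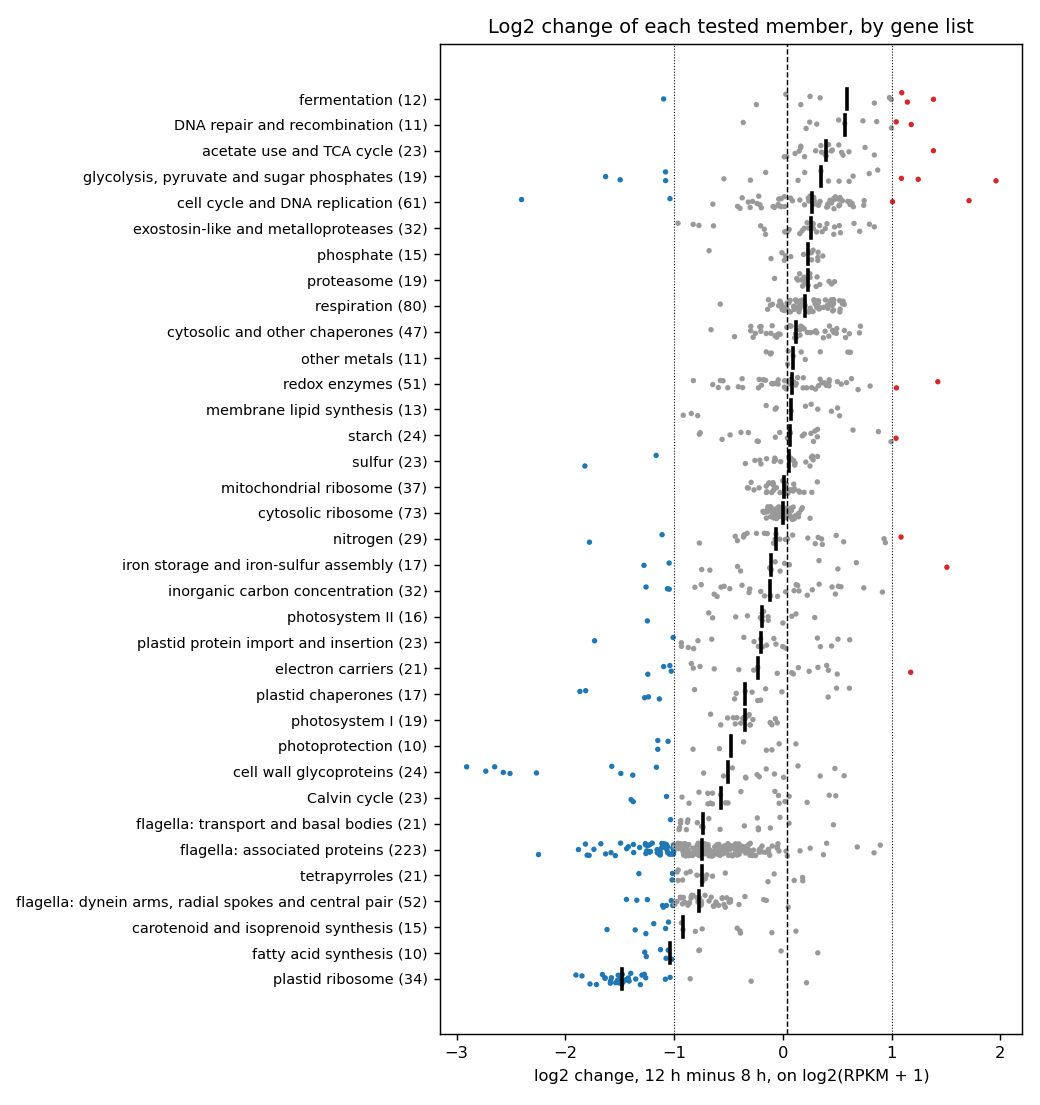
Log2 change (12 h minus 8 h) of every tested member of the lists with 10 or more tested transcripts, red where called higher, blue where called lower and grey where not called. Black bars mark list medians, the dashed line marks the median of all tested transcripts at 0.04 and dotted lines mark 2-fold. Medians run from 0.59 for fermentation to -1.48 for the plastid ribosome.

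Of the 124 transcripts called higher at 12 h, 23 have a symbol. GAP1a, a glyceraldehyde 3-phosphate dehydrogenase, rose most among transcripts with a symbol. Its row is described as a splicing variant, so reads shared with another form make its level uncertain. It had 405 and 497 RPKM at 12 h, against 92.9 and 141 RPKM at 8 h (log2 change 1.96 ± 0.17, limma adjusted p = 3.2e-06). TEF13, listed as a predicted protein, had 461 and 673 RPKM at 12 h and 129 and 204 RPKM at 8 h (log2 change 1.77 ± 0.29). In the list of glycolysis, pyruvate and sugar phosphates 3 of 19 were higher and 4 lower. PPD1, pyruvate phosphate dikinase, changed by 1.24, while the pyruvate kinase PYK5 changed by -1.496 and the triose phosphate translocator TPT2 by -1.63. Without the first 8 h column GAP1a was the only riser of the list and PPD1 stood at 0.95 (limma adjusted p = 0.0612).

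Acetate use and the TCA cycle had 1 of 23 higher and none lower, yet all 23 changes were above 0 and 14 were higher by limma adjusted p alone, against 15.4% of all transcripts. The median was 0.40. ACK1, an acetate kinase, was the called member, with 6.83 and 10.1 RPKM at 12 h, against 2.15 and 3.06 RPKM at 8 h (log2 change 1.38 ± 0.20, limma adjusted p = 2.1e-04). Isocitrate lyase ICL1 of the glyoxylate cycle had 3476 and 3950 RPKM at 12 h and 2649 and 2995 RPKM at 8 h, and missed the threshold (limma adjusted p = 0.0840). ACK1 was at 0.82 and was not called with 5 RPKM added before taking logs. The list took 1.15% and 1.24% of all RPKM at 12 h, against 0.894% and 0.997% at 8 h. For mitochondrial respiration none of 80 was called, 28 were higher by limma adjusted p alone and 1 was lower, with a median of 0.20. At an unadjusted p below 0.05 these counts were 38 and 1, and the test on recovered reads called none.

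Of 12 fermentation transcripts 3 were higher, ACK1 and the hybrid-cluster proteins HCP1 and HCP3, and FDX5 was lower. HCP3 had 33.6 and 34.9 RPKM at 12 h, against 14.02 and 17.2 RPKM at 8 h (log2 change 1.09 ± 0.16, limma adjusted p = 2.3e-04). HCP1, a low transcript, had 2.37 and 2.34 RPKM at 12 h and 0.371 and 0.680 RPKM at 8 h, a log2 change of 1.14. Its mean at 8 h was 0.526 RPKM, from 8 and 16 reads, so HCP1 passed the filter through the 12 h columns alone. Without the first 8 h column 1 of the list was higher, with HCP3 at 0.94 and HCP1 at 0.95. None of the list was called higher with 5 RPKM added before taking logs. The count of higher members was 5 without the first 12 h column or the second 8 h column. Pyruvate formate lyase PFL1, the most abundant, had 386 and 425 RPKM at 12 h and 300 and 386 RPKM at 8 h, and its columns overlapped.

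No iron uptake gene was called across this step. Of the 6, by limma 1 was higher and none lower both at an adjusted and at an unadjusted p below 0.05 without the fold threshold, and the test on recovered reads called none. FEA1, the iron-assimilating surface protein, had 5367 and 4693 RPKM at 12 h and 4874 and 4331 RPKM at 8 h. The ferric reductase FRE1 had 1558 and 2050 RPKM at 12 h and 1297 and 1724 RPKM at 8 h, the ferroxidase FOX1 had 768 and 685 RPKM at 12 h and 706 and 661 RPKM at 8 h, and the permease FTR1 had 869 and 940 RPKM at 12 h and 845 and 895 RPKM at 8 h. Columns of these 4 overlapped. The transporter IRT1 differed more between duplicates than between times, with 27.2 and 14.8 RPKM at 12 h and 29.5 and 16.9 RPKM at 8 h. FOX2, a low multicopper oxidase, passed by adjusted p alone with 7.80 and 8.59 RPKM at 12 h, against 4.49 and 5.28 RPKM at 8 h (log2 change 0.65 ± 0.11, limma adjusted p = 5.8e-04).

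Of 17 transcripts for iron storage and iron-sulfur assembly 1 was higher and 2 lower. FER2, a ferritin subunit, had 7.05 and 7.60 RPKM at 12 h, against 1.71 and 2.16 RPKM at 8 h (log2 change 1.51 ± 0.09, limma adjusted p = 2.8e-07). With 5 RPKM added before taking logs its change was 0.83, and neither it nor SUFC and SUFD was called. The abundant ferritin FER1 had 912 and 804 RPKM at 12 h and 882 and 766 RPKM at 8 h, with overlapping columns. Of the plastid SUF system, which builds iron-sulfur clusters, SUFD changed by -1.28 and SUFC by -1.05. SUFE and SUFB, not called, changed by -0.75 and -0.39 (limma adjusted p = 0.00132 and 0.0138), while SUFA changed by 0.68 (limma adjusted p = 9.1e-04). SUFC was at -0.97 without the second 12 h column. The mitochondrial-type scaffold ISU1 had 74.9 and 58.9 RPKM at 12 h, against 51.9 and 41.6 RPKM at 8 h (log2 change 0.51, limma adjusted p = 0.00301), and the cysteine desulfurase NFS1 had overlapping columns.

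Among cell cycle and DNA replication transcripts few were called. Of 61 tested, 2 were higher and 2 lower, against 1.01% and 2.78% of all transcripts. By limma adjusted p alone 22 were higher and 4 lower, against 15.4% and 15.8% of all transcripts. The D-type cyclin CYCD4, of the class that acts on entry into division, had 12.8 and 12.6 RPKM at 12 h, against 3.16 and 3.22 RPKM at 8 h (log2 change 1.71 ± 0.20, limma adjusted p = 5.0e-05). The ribonucleotide reductase subunit RIR1, which makes DNA precursors, changed by 1.01, and was at 0.99 without the first 12 h column and 0.91 without the first 8 h column. The Aurora-like kinase ALK3 had 3.23 and 4.51 RPKM at 12 h, against 24.8 and 24.3 RPKM at 8 h (log2 change -2.40 ± 0.18, limma adjusted p = 9.9e-07). The A-type cyclin CYCA1 changed by -1.04, and was at -0.82 without the first 12 h column and -0.99 without the first 8 h column. In DNA repair and recombination, 2 of 11 were higher and 8 by adjusted p alone, with RAD51C at 1.18 and the flap nuclease FEN1 at 1.04. Neither of these was called without the first 8 h column, at 0.95 and 0.85, and FEN1 was at 0.92 without the second 12 h column. The higher count was 4 without the second 8 h column. The 14 histone transcripts of the table all stayed under the filter.

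**Figure D5:**
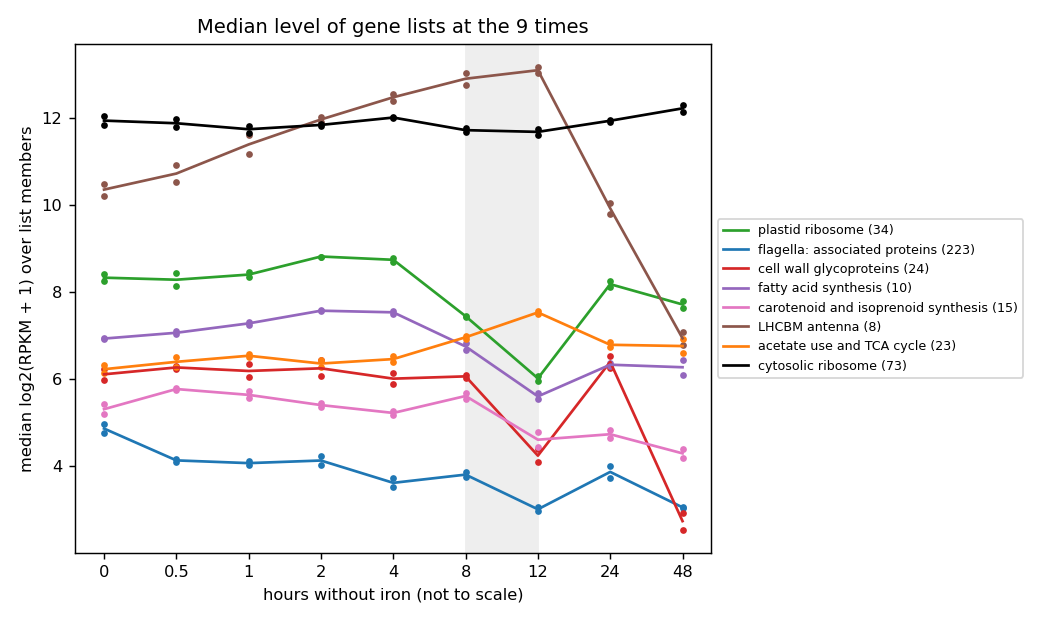
Median log2(RPKM + 1) of 8 gene lists at the 9 times in hours without iron (axis not to scale), with points for each duplicate, lines through their means and the step from 8 h to 12 h shaded. The plastid ribosome, cell wall and fatty acid lists lie low at 12 h, and the acetate list is highest there.

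Over the whole time course the medians of the plastid ribosome and cell wall lists were lower at 12 h than at 8 h and at 24 h. The same held for the lists of flagella-associated proteins, plastid chaperones, fatty acid synthesis, tetrapyrroles and carotenoids. A higher level at 24 h than at 12 h was common, found in 78.1% of all tested transcripts. The median plastid ribosome transcript stood at 320 RPKM at 0 h, 425 RPKM at 4 h, 172 RPKM at 8 h, 63.6 RPKM at 12 h, 288 RPKM at 24 h and 208 RPKM at 48 h. The cell wall list had medians of 63.4 RPKM at 4 h, 65.6 RPKM at 8 h, 17.97 RPKM at 12 h, 84.2 RPKM at 24 h and 5.73 RPKM at 48 h. The acetate list ran the other way, with 86.7 RPKM at 4 h, 123 RPKM at 8 h, 183 RPKM at 12 h and 109 RPKM at 24 h. These levels share the 12 h columns with the comparison and are given as a description, with no test.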

How the data were processed

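RNA from cells at 9 times was sequenced, and the authors deposited a table of RPKM values for 17301 transcripts in 18 columns, 2 per time. Per the submitters' processing notes Bowtie was used. The version, the counting tool and the build were not given in the sources used here. The header names no unit, which was read from the values, and reads were recovered from them (lengths solved for 95.8% of transcripts, tolerance 0.05 reads).

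Values were taken as log2(RPKM + 1) and fitted with limma-trend (limma 3.58.1, R 4.3.3) on the full set of 18 columns. The model held a term for each time and a block for the duplicate number, leaving 8 residual degrees of freedom. Transcripts with a mean of at least 1 RPKM at 12 h or 8 h entered, with Benjamini-Hochberg adjustment of the p-values. The duplicate numbers pair the columns: the differences between duplicates correlated at 0.74 between 12 h and 8 h, and at 0.31 to 0.74 over all pairs of times. The fit was tested on simulated data. GEO registers 1 sample per time, so the p-values measure the spread between columns only. That spread is the residual over all 18 columns after the time and duplicate terms, moderated across transcripts. It is not that of the 12 h and 8 h columns alone.

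The members and gene lists were chosen with earlier results of these data known. Of 43 lists, 5 were added and others split or corrected from the table's gene descriptions after values were seen. Named transcripts were the 12 largest rises and falls with a symbol, the 2 largest of each without, the 5 most abundant, all iron genes, and from each other list up to 4 called and 2 most abundant members. Alternatives changed the pseudocount, filter, centring, block, columns and thresholds. Recovered reads with limma voom were added after seeing the data.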

Additional observations from a re-analysis of the deposited data

How the results depend on the processing

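Centring each column on its median, other filters on low values, the 12 h and 8 h columns alone, and an adjusted p below 0.01 kept each count of calls within 1.5 times. Dropping the replicate block gave 120 higher and 332 lower, with 31 plastid ribosomal, 59 flagellar, 9 cell wall and 6 fatty acid transcripts lower. With 0.1 RPKM added before taking logs, 264 were higher, 579 lower and 93 flagellar transcripts lower. With 5 RPKM added, these were 34, 149 and 24. The larger number shrinks changes of low transcripts by its construction. With recovered reads and voom they were 293, 603 and 96, and with no fold threshold 1889, 1937 and 250. Leaving out 1 column at a time gave 90 to 182 higher and 276 to 422 lower, 37 to 89 flagellar, 29 to 31 plastid ribosomal, 9 to 10 cell wall and 3 to 6 fatty acid transcripts lower. Of 83 called transcripts that the text may name, 56 were called without each column in turn and 80 kept an adjusted p below 0.05 throughout (limma-trend, Benjamini-Hochberg). With 5 RPKM added 32 of the 83 were not called, and 43 were called under every setting. The 32 included the rises FER2, CAT2, ACK1, FDX2, HCP1 and HCP3. They also included falls, among them TPT2 at -0.98, RHP1 at -0.89, FBA2 at -0.93, RSP17 at -0.84, RSP2 at -0.91 and CPN60B1 at -0.997. Changes under 2-fold cannot be called, and transcripts near 1 RPKM are limited by depth.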

Other observations

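Transcripts without a symbol held the largest changes of all. Cre02.g079450 had 2.64 and 3.53 RPKM at 12 h, against 66.5 and 40.5 RPKM at 8 h, a log2 change of -3.70 ± 0.24 (limma adjusted p = 3.9e-07). Cre12.g543400 had 14.9 and 18 RPKM at 12 h, against 1.56 and 2.57 RPKM at 8 h, a log2 change of 2.53 ± 0.27 (limma adjusted p = 2.0e-05). Cre03.g148500 changed by 2.51.

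Cre18.g748800, with 3.86 and 4.46 RPKM at 12 h and 69.3 and 36.4 RPKM at 8 h, fell with 3 others whose identifiers lie close to it. Chosen after their values were seen, Cre18.g748750 changed by -3.07, Cre18.g748500 by -3.08 and Cre18.g748450 by -2.76 on the log2(RPKM + 1) scale. Similar copies that share reads could give like values, which was not tested. Over the time course Cre18.g748500 had means of 53.3 RPKM at 0 h, 15.4 RPKM at 4 h, 72.8 RPKM at 8 h, 7.26 RPKM at 12 h, 49.5 RPKM at 24 h and 3.73 RPKM at 48 h.

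Lists that the report does not describe had few calls. Among all transcripts 1.01% were called higher and 2.78% lower, so no call in lists this small lies near those shares. By adjusted p alone the shares of all transcripts were 15.4% higher and 15.8% lower. None of 19 proteasome, 7 autophagy, 15 phosphate and 11 other metal transcripts was called by limma or on recovered reads. At an unadjusted limma p below 0.05, 10 proteasome transcripts were higher and none lower, 4 phosphate transcripts were higher and 1 lower, 4 other metal transcripts were higher and none lower, and none of the autophagy list passed. Of 47 cytosolic and other chaperones none was called by limma, 12 were higher and 2 lower by adjusted p alone, and 1 was higher on recovered reads. Of 32 exostosin-like proteins and metalloproteases, 11 were higher and 4 lower by limma adjusted p alone and none was called with the fold threshold, while 1 was higher and 2 lower on recovered reads. Starch metabolism had 1 of 24 higher, the isoamylase ISA2, with 25.3 and 20.03 RPKM at 12 h, against 10.7 and 10.2 RPKM at 8 h. It was at 0.94 on the log2 scale without the first 12 h column, in place of 1.04.

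In sulfur assimilation 2 of 23 were lower and none higher. MET16, adenylylphosphosulfate reductase, had 19.6 and 16.4 RPKM at 12 h, against 69.4 and 62.8 RPKM at 8 h, a log2 change of -1.82 ± 0.09 (limma adjusted p = 1.2e-07). The arylsulfatase-like ARS5 changed by -1.17, and was at -0.92 and not called with 5 RPKM added before taking logs. ATP sulfurylase ATS1, the step before MET16, changed by 0.27 (limma adjusted p = 0.0152). In nitrogen metabolism 1 of 29 was higher and 2 were lower. The ferredoxin-dependent glutamate synthase GSF1 changed by -1.11 and the NADH-dependent GSN1 by 1.09. The call of GSN1 was lost without the first 8 h column, at 0.89, and 2 of the list were higher without the first 12 h column. RHP1, an Rh protein that responds to carbon dioxide, was the other lower member, with 0.749 and 1.75 RPKM at 12 h and 5.42 and 7.82 RPKM at 8 h.

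Of 51 redox enzymes 2 were higher and none lower, against 1.01% and 2.78% of all transcripts. By limma adjusted p alone 16 were higher and 8 lower, against 15.4% and 15.8% of all transcripts. The count of lower members by adjusted p alone lay near its overall share. CAT2, a catalase/peroxidase, had 10.3 and 13.8 RPKM at 12 h, against 2.86 and 5.05 RPKM at 8 h, a log2 change of 1.42 ± 0.17 (limma adjusted p = 6.1e-05). NTR2 changed by 1.04, and by 0.91 without the first 8 h column. Neither was called with 5 RPKM added before taking logs.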
